A study of Mus musculus with 2 samples.

Results

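The Mir132-Mir212 cluster (the genes of miR-132 and miR-212) and the miR-183 cluster (Mir182, Mir183 and Mir96) are 2 groups of microRNA (miRNA) genes that have been reported to be raised in the rodent adrenal gland by adrenocorticotropic hormone (ACTH), the pituitary hormone that drives the adrenal cortex to make steroids. The 5 genes were taken by their symbols in GENCODE release M21 out of 2202 miRNA genes with counts. The samples were adrenal glands from B6CASTF1/J males, a cross of C57BL/6 with CAST/EiJ, taken 10 days after birth. They form 1 group of 2 libraries, numbered as biological replicates 1 and 2, from mice of a shared donor record, and whether glands were pooled is not stated in the sources used here. The labels name no treatment and no second condition, so a response to ACTH could not be tested, and the data show the level of each gene in the young gland and how far the 2 libraries differed. The animal, and any difference in dissection or library preparation, cannot be told apart between them.

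A miRNA gene is transcribed into a long precursor from which a hairpin is cut. Each hairpin gives a 5p and a 3p arm, and 1 arm, loaded onto an Argonaute protein, pairs through its seed (bases 2 to 8) with messenger RNAs and lowers their output. ACTH acts through its receptor and cyclic AMP, and the Mir132-Mir212 gene is a known target of the cyclic AMP-responsive factor CREB, best studied in neurons. The miR-183 cluster is known from sensory organs such as the retina and the inner ear, and is also expressed in other epithelial and endocrine tissues.

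The mature sequences show which members could act on the same targets. They are given here 5′ to 3′ from RefSeq (build GRCm38.p6), for the arm usually taken as the active one, with the seed in capitals. All 5 genes were matched, with 10 mature sequences.
miR-132-3p: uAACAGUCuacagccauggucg
miR-212-3p: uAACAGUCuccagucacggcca
miR-182-5p: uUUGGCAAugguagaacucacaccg
miR-183-5p: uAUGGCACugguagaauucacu
miR-96-5p: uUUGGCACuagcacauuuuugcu
The miR-132-3p and miR-212-3p seeds were the same, and these miRNAs were identical at 17 of 22 bases, with all 5 differences after the seed (A10C, C14U, U17C, U20C and G22A, counted from 1 at the 5′ end, with the base of miR-132-3p written first). In the miR-183 cluster every seed was different. From miR-96-5p to miR-182-5p the seed changed by C8A alone, and from miR-96-5p to miR-183-5p by U2A alone, so each of these pairs shared 6 of 7 seed bases. miR-182-5p and miR-183-5p shared 5 of 7 seed bases, but were the most similar pair of the cluster over their whole length, identical at 18 of 22 positions compared from the 5′ end, against 12 of 23 for miR-96-5p and miR-182-5p and 13 of 22 for miR-96-5p and miR-183-5p.

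Few other miRNAs had these seeds. Among 1738 mature sequences of the RefSeq table, the seed of miR-132-3p and miR-212-3p was found in no other miRNA. The seed of miR-96-5p was shared with miR-1271-5p, whose gene, annotated as Gm24195, had 0 counts in both libraries, which allows up to 1.05 CPM (each count scaled by the assigned reads of its library) in replicate 1 and 0.974 CPM in replicate 2. The 3p arm of Mir96 shared its seed with miR-3475-5p, and Mir3475 had 13 and 15 counts in replicates 1 and 2.

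The counts are per gene and do not separate the arms of a hairpin. The hairpins that were counted are shown in the same order, 5′ to 3′, with both annotated arms in capitals.
Mir132: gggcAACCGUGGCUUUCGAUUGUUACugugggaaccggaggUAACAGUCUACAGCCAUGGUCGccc
Mir212: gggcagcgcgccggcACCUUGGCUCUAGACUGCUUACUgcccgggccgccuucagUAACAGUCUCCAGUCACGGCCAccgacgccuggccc
Mir182: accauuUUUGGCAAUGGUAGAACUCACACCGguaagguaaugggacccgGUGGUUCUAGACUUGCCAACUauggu
Mir183: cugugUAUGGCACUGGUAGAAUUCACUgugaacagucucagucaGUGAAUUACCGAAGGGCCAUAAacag
Mir96: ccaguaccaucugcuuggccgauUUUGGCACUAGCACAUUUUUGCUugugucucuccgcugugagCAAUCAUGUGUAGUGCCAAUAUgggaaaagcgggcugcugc
Their GC content ranged from 45.7% for Mir183 to 69.2% for Mir212, with Mir132 at 57.6%. No member shared a run of 18 bases with another annotated miRNA gene on either strand, whereas 1135 of the 2202 genes did. Multiply mapped reads were left unassigned by the authors' counting, and copies of the members elsewhere in the genome were not looked for.

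Both clusters are compact in the mm10 build. Mir212 (ENSMUSG00000065590.1, chr11:75173388-75173478) and Mir132 (ENSMUSG00000065537.2, chr11:75173682-75173747) lie on the plus strand of chromosome 11, 203 bp apart. Both are in intron 1 of 1700016P03Rik, a noncoding transcript of 3 exons. Mir182 (ENSMUSG00000076361.1, chr6:30165918-30165992), Mir96 (ENSMUSG00000065586.1, chr6:30169446-30169551) and Mir183 (ENSMUSG00000065619.2, chr6:30169668-30169737) lie on the minus strand of chromosome 6 with no annotated host. Mir183 and Mir96 are 116 bp apart and Mir182 lies 3453 bp beyond Mir96. No annotated gene overlaps a member on the other strand, and the opposite-strand count was at most 1 read per member and library.

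Replicate 1 had 2843734 and replicate 2 had 3080062 reads assigned to miRNA genes on their own strand. All values below are own-strand CPM, or differences made from it, and intervals cover counting error only. The libraries differed by far more than sampling noise (chi-square 773.4 times its degrees of freedom over 444 genes), and they were counted as 2 samples. Mir375, known from endocrine and neuroendocrine cells, was high in both, at 34145 and 34383 CPM. It was the highest of 4 neuroendocrine markers given below, and the other 3 (Mir7b, Mir7-1 and Mir7-2) were lower in replicate 2. Mir122, known from hepatocytes, had 29424 and 97850 CPM. The level of Mir375 alone therefore does not show that the libraries held the same mix of cells.

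In each cluster 1 member had most of the counted reads. How well different sequences enter a library was not tested here, so ratios between members are ratios of counted reads. Mir132 had 1841 counts or 647 CPM in replicate 1 (95% Wilson interval 618 to 678) and 2873 counts or 933 CPM in replicate 2 (899 to 967), a mean of 790.1 ± 201.8 CPM (SD, n = 2). Mir182 had 4927 counts or 1733 CPM in replicate 1 (1685 to 1782) and 2477 counts or 804 CPM in replicate 2 (773 to 836), a mean of 1268 ± 656 CPM. Mir182 ranked 76 and Mir132 ranked 105 among the 2202 genes by mean level. Their order changed with the library: Mir182 was above Mir132 in replicate 1 and below it in replicate 2.

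The other members had fewer counted reads than the leading gene of their own cluster in both libraries. Mir183 had 211 counts or 74.2 CPM in replicate 1 (64.8 to 84.9) and 305 counts or 99.0 CPM in replicate 2 (88.5 to 110.8), a mean of 86.6 ± 17.6 CPM and rank 214. Mir212 had 168 counts or 59.1 CPM in replicate 1 (50.8 to 68.7) and 91 counts or 29.5 CPM in replicate 2 (24.1 to 36.3), a mean of 44.3 ± 20.9 CPM and rank 248. Mir96 had only 35 counts or 12.3 CPM in replicate 1 (8.85 to 17.1) and 11 counts or 3.57 CPM in replicate 2 (1.99 to 6.40), a mean of 7.94 ± 6.18 CPM and rank 323. In both libraries the order was Mir183, then Mir212, then Mir96, all below Mir132 and Mir182. The ranges of the 2 libraries of Mir183 and Mir212 did not overlap, nor did those of Mir212 and Mir96.

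**Figure D1:**
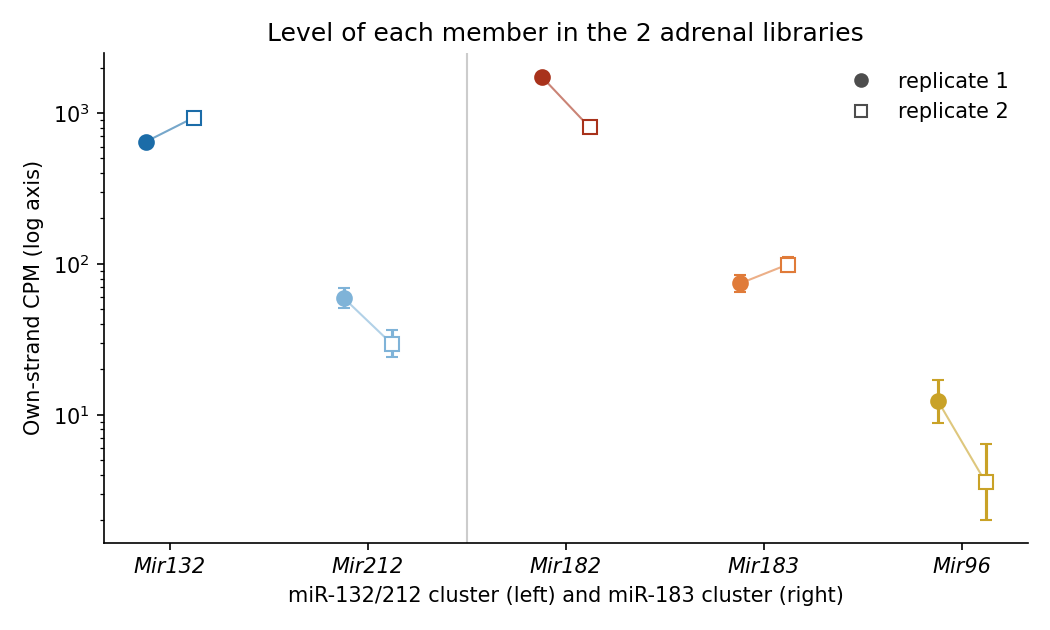
Own-strand CPM (log axis) of the 5 genes in replicate 1 (filled circles) and replicate 2 (open squares), with 95% Wilson intervals for counting error, joined by a line per gene. Mir132 and Mir183 are higher in replicate 2, and Mir212, Mir182 and Mir96 are higher in replicate 1.

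All 5 genes were among the 441 with at least 1 CPM in both libraries, whose median mean level was 73.3 CPM. Mir182, Mir132 and Mir183 lay above this median and Mir212 and Mir96 below it.

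**Figure D2:**
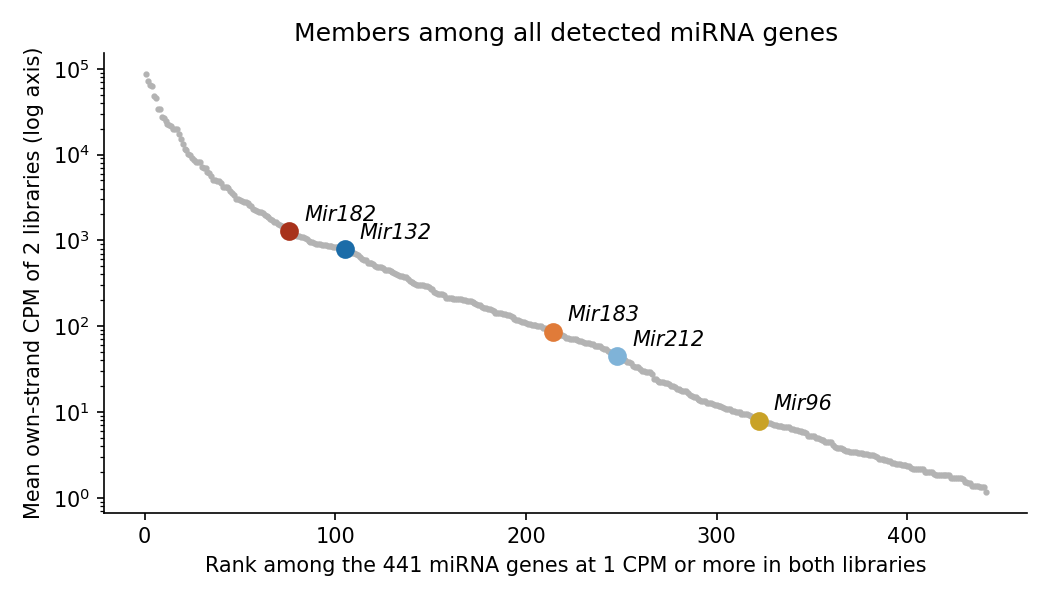
Mean own-strand CPM of the 2 libraries (log axis) against rank for the 441 miRNA genes with at least 1 CPM in both (grey), with the 5 members in colour. Mir182 and Mir132 stand at ranks 76 and 105, Mir183 and Mir212 at ranks 214 and 248, and Mir96 at rank 323.

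The summed level of the Mir132-Mir212 cluster was 706 CPM in replicate 1 and 962 CPM in replicate 2 (834 ± 181 CPM, SD, n = 2). That of the miR-183 cluster was 1819 CPM and 907 CPM (1363 ± 645 CPM). The miR-183 cluster was 2.58 times the Mir132-Mir212 cluster in replicate 1 and 0.942 times in replicate 2, so these data do not give an order of the clusters. The means differed by less than the SD of the miR-183 cluster.

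The miRNAs nearest in level over the 2 libraries, by the larger absolute difference in log2(CPM + 1), had differences between 0.08 and 0.36. They were Mirlet7c-2 (0.08) and Mir672 (0.09) for Mir132, and Mir204 (0.35) and Mir129-2 (0.36) for Mir212. For Mir182 they were Mir497 (0.24) and Mir872 (0.30), for Mir183 they were Mir877 (0.12) and Mir138-2 (0.16), and for Mir96 they were Mir135b and Mir302b (both 0.31). With 2 libraries this likeness is a description of level only. Mirlet7c-2, Mir129-2, Mir138-2 and Mir302b share a run of 18 bases with another miRNA gene, so their levels are uncertain. Mir129-2 also overlaps Mir129b on the other strand and had 0 and 1 counts without strand.

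Within the Mir132-Mir212 cluster the 2 miRNAs with the same seed were counted in very unequal amounts. Mir132 had 10.96 reads for each Mir212 read in replicate 1 (exact 95% interval 9.35 to 12.9) and 31.6 in replicate 2 (25.6 to 39.3). The mean log2 ratio was 4.21 ± 1.08 (SD, n = 2). Mir212 gave 8.36% of the reads of the cluster in replicate 1 (exact 95% interval 7.19 to 9.66) and 3.07% in replicate 2 (2.48 to 3.76). So nearly all of the counted reads from hairpins with this seed came from Mir132 in both libraries.

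Within the miR-183 cluster Mir182 gave 95.2% of the reads in replicate 1 (94.6 to 95.8) and 88.7% in replicate 2 (87.5 to 89.8). Mir183 gave 4.08% (3.56 to 4.65) and 10.9% (9.79 to 12.1), and Mir96 gave 0.677% (0.472 to 0.940) and 0.394% (0.197 to 0.704). Mir182 had 23.4 reads for each Mir183 read in replicate 1 and 8.12 in replicate 2, a mean log2 ratio of Mir183 to Mir182 of -3.78 ± 1.08 (SD, n = 2). The log2 ratio of Mir96 to Mir182 was -7.43 ± 0.45, and that of Mir96 to Mir183 was -3.65 ± 1.53. In counted reads Mir96 and Mir183, 116 bp apart, thus differed by 6.03 times in replicate 1 and 27.7 times in replicate 2. With 2 libraries an exact sign-flip test cannot go below p = 0.5, so no test over samples was made.

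The composition of both clusters differed between the libraries. By Fisher's exact test on reads, two-sided and adjusted over 4 pairs, Mir132 was higher relative to Mir212 in replicate 2, with an odds ratio of 2.88 (adjusted p = 1.1e-15), and Mir183 was higher relative to Mir182, with an odds ratio of 2.88 (adjusted p = 9.8e-30). Mir96 was lower relative to Mir183, with an odds ratio of 0.217 (exact test, adjusted p = 5.6e-06). For Mir96 against Mir182 the odds ratio was 0.625 (exact test, adjusted p = 0.21), so a difference of this size was not called with 35 and 11 reads of Mir96. These ratios need no scaling between libraries. The tests set 2 libraries against counting error and do not measure the spread between animals.

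**Figure D3:**
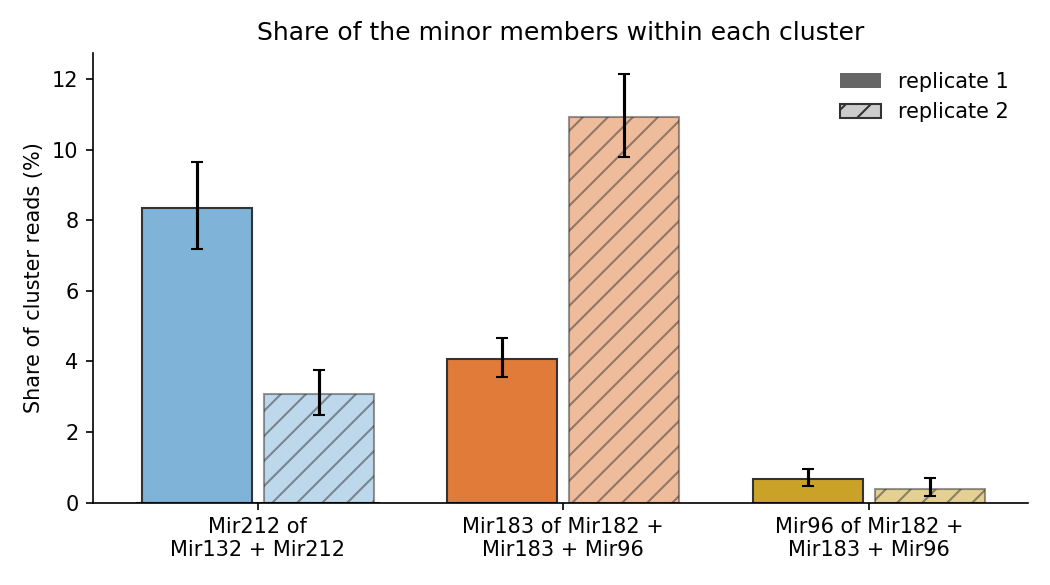
Share of the reads of a cluster (%) that came from Mir212, Mir183 and Mir96, in replicate 1 (solid) and replicate 2 (hatched), with exact 95% intervals for counting error. The share of Mir212 is 8.36% and 3.07%, that of Mir183 is 4.08% and 10.9%, and the intervals of Mir96 overlap.

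Both clusters held members that differed between the libraries in opposite directions, in the miR-183 cluster Mir183 against Mir182 and Mir96. In an exact binomial test of each of 444 genes with at least 10 counts (two-sided, p adjusted by Benjamini-Hochberg over those genes), 5 of 5 members passed 0.05, but so did 59.0% of all genes tested, so this count does not set the members apart. Mir132 was 1.44 times higher in replicate 2, a log2 difference of 0.53 (exact test, adjusted p = 2.3e-34), and Mir183 was 1.33 times higher (log2 difference 0.42, adjusted p = 0.00267). Mir182 was 2.15 times higher in replicate 1 (log2 difference of replicate 2 from replicate 1 -1.11, exact test, adjusted p = 1.4e-225), Mir212 was 2.00 times higher (-0.996, adjusted p = 1.9e-07) and Mir96 was 3.45 times higher (-1.74, adjusted p = 3.5e-04). The median over all genes tested was 0.07, and 28.6% of the genes were called higher in replicate 2 and 30.4% higher in replicate 1.

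The size of these differences was within what other miRNA genes showed. An absolute log2 difference at least that of Mir96 was seen in 7.43% of the genes tested, of Mir182 in 19.8%, of Mir212 in 23.0%, of Mir132 in 52.7% and of Mir183 in 61.7%. The genes tested include some with few reads, whose log2 differences vary more through counting error. Genes of like depth were not compared separately. When the spread between these 2 libraries was also taken into account, by edgeR's exact negative binomial test, 0.450% of the genes were called (5.63% at an unadjusted p under 0.05) and no member was: each had an adjusted p of 1, and unadjusted p ranged from 0.0902 for Mir96 to 0.622 for Mir183. That spread was estimated from the 2 libraries compared, so this test calls few genes by its construction.

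Opposite differences between neighbours were common among miRNA genes, but the directions were split nearly evenly over all genes. Of the 262 genes called, 48.5% were higher in replicate 2, so unrelated called genes would also often be opposite. Of 104 pairs of neighbouring miRNA genes on the same strand, with starts within 10000 bp and at least 10 CPM in both libraries, 75 had both genes called by the binomial test, and of these 36 (48.0%) were called in opposite directions and 39 in the same direction. Mir132 with Mir212 and Mir182 with Mir183 were 2 of the 36; Mir96 was under 10 CPM in replicate 2 and does not enter. Among the 67 pairs in which no gene shares a run of 18 bases with another, 26 of 55 (47.3%) were called in opposite directions. The pairs overlap in genes along longer clusters and are not independent, and the count of opposite calls was chosen after the values of the members were seen.

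The member pairs lay above the median of neighbouring pairs in both level difference and shift. The level difference of Mir132 and Mir212 (4.21 on the log2 scale) was reached by 24.0% of the 104 pairs and that of Mir183 and Mir182 (3.78) by 26.0%, against a median of 2.09. Their shift between libraries (the difference of the log2 ratios of both genes) was 1.52 for each pair, against a median of 0.66, and was reached by 10.6% and 11.5% of the pairs. The widest level differences were Mirlet7d with Mirlet7f-1 (7.55), Mir199a-2 with Mir214 (6.72) and Mir29a with Mir29b-1 (6.13). Whether reads left unassigned by multiple mapping widened these differences was not tested. The 104 pairs include genes that share a run of bases with another miRNA gene, whose levels are uncertain. Among the 67 pairs without such genes the median level difference was 1.75 and the median shift 0.61.

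**Figure D4:**
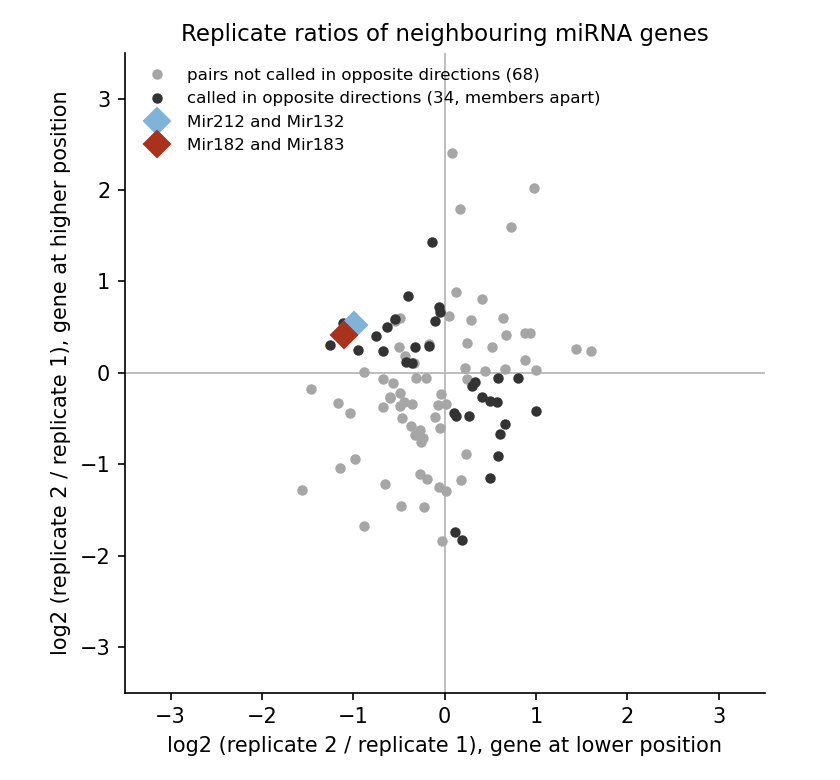
Log2 ratio of replicate 2 to replicate 1 for both genes of 104 neighbouring miRNA pairs, with the gene at the lower chromosome position on the x axis. The member pairs (diamonds) lie together in the upper left, among 34 other pairs called in opposite directions (dark) and 68 that were not (grey).

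Genes reported as lowered by ACTH in rodent adrenal were mostly not measurable here. Of 11 genes (8 copies of Mir466b, Mir214, Mir503 and Mir27a), 3 had counts. Mir214, a mesenchymal miRNA, had 1683 CPM in replicate 1 and 2088 CPM in replicate 2, Mir27a 774 and 780 CPM, and Mir503 441 and 658 CPM. Mir214 and Mir503 were called higher in replicate 2 and none of the list higher in replicate 1, beside 28.6% and 30.4% of all genes tested, and the median log2 difference of the 3 was 0.31, against 0.07 over all genes. The 8 Mir466b genes were at 0 in both libraries, and each shares a run of 18 bases with at least 19 other miRNA genes, so a count of 0 does not show absence. The level of Mir27a, which shares such a run with Mir27b, is uncertain. Mir214, Mir503 and Mir27a were above Mir183, Mir212 and Mir96 in both libraries.

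A second list held 12 miRNAs linked to steroid production or adrenal hormone response. In replicate 2, 7 of the 12 were called higher and 2 lower, with a median log2 difference of 0.36, beside 28.6% and 30.4% of all genes tested and a median of 0.07. Without strand 6 of the 12 were called in place of 9. Of the 7 called higher, Mir122 (log2 difference 1.73), Mir200b (2.02) and Mir155 (0.21) are also markers of hepatocytes, epithelium and leukocytes. Mir21a, a growth-associated miRNA, had 6869 CPM in replicate 1 and 13582 CPM in replicate 2, and Mir34a, a target of p53, had 617 and 876 CPM. Mir125a had 5157 and 4943 CPM and was called lower by 0.06 on the log2 scale. The other gene called lower was Mir24-2 (275 and 112 CPM), while Mir24-1 (51.3 and 81.5 CPM) was called higher. Mir24-1 and Mir24-2 share a run of 18 bases, and each overlaps a Mir3074 gene on the other strand and had 0 counts without strand, so both are uncertain.

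Markers of other cell types also differed between the libraries, beside the members. Of all genes tested, 28.6% were called higher in replicate 2 and 30.4% higher in replicate 1. Among the 11 neuron genes 10 share a run of 18 bases with some other miRNA gene, as do 5 of the 9 striated muscle genes and 2 of the 4 neuroendocrine genes, so their sums and counts of 0 are uncertain. The neuron list (11 genes, 4 of them at 0 in both libraries) had 978 CPM in replicate 1 and 597 CPM in replicate 2, with 4 of 5 tested genes called higher in replicate 1. Mir137 had 765 and 457 CPM, and 3 of the 4 genes of the neuroendocrine list (Mir7b, Mir7-1 and Mir7-2, not Mir375) were called higher in replicate 1. The epithelial list summed to 1321 and 1221 CPM, with 5 of 7 genes called higher in replicate 2 and Mir203 higher in replicate 1. Mir122, the main miRNA of hepatocytes, had 29424 and 97850 CPM, and the striated muscle list (9 genes, with Mir133a-2 at 0) had 929 and 3337 CPM, nearly all of it counted on Mir206. The leukocyte list had 1044 and 1547 CPM, with 2 of its 4 genes called higher in replicate 2. These were Mir150 (292 and 786 CPM) and Mir155 (218 and 253 CPM). Mir223 (144 and 141 CPM) and Mir142 (390 and 368 CPM) were not called. Mir142 overlaps Mir142b on the other strand and had 0 counts without strand, so it is uncertain. Mir204, Mir211 and Mir184, which are known from the retina and other sensory epithelia, summed to 104 and 102 CPM, with none called. The part of these cells in the differences of the members was not tested, and fewer cells of a type and less miRNA per cell cannot be told apart in bulk tissue. With Mir122 left out of the totals, the log2 differences of the members were 0.63 for Mir132, -0.89 for Mir212, -1.002 for Mir182, 0.52 for Mir183 and -1.64 for Mir96, each still called by the exact binomial test.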

How the data were processed

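MicroRNA libraries of short fragments from 2 adrenal gland samples were analysed from raw counts for each miRNA gene, as the authors deposited them. Per the file descriptions the build was mm10 and the annotation GENCODE M21; the aligner and the counter: not given in the sources used here. From the values, the 3 count columns hold reads regardless of strand, sense reads and antisense reads. The sense (own-strand) column was used, and the first as a check. The 4 rows for unassigned reads stayed out of totals (26.4% and 32.0% of reads unmapped, 27.5% and 25.9% multiply mapped in replicates 1 and 2).

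CPM used own-strand totals. Log2 differences added 0.5 counts. Genes with a sum of at least 10 counts were tested with an exact two-sided binomial test, adjusted by Benjamini-Hochberg, at a threshold of 0.05; with 1 group, edgeR's quasi-likelihood test cannot be used. The test was run on simulated counts with counting error only, the model that it assumes. This checks the code and not the calls, because the wider spread between these 2 libraries was not simulated. Named genes were the members, 2 lists linked to ACTH or steroid production, markers, genes sharing a seed, the 2 nearest in level and the 3 widest neighbouring pairs. The members and lists were chosen with earlier results of these data known. Alternatives were counting without strand, TMM and DESeq2 factors, Mir122 left out, other count minimums and pseudocounts, single replicates, and an exact negative binomial test. Software was Python 3.11.15 (scipy 1.17.1, pandas 2.3.3, numpy 2.4.6) and R 4.3.3 (DESeq2 1.42.0, edgeR 4.0.16).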

Additional observations from a re-analysis of the deposited data

How the results depend on the processing

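Each of the 5 member differences between the libraries kept its direction and its call by the exact binomial test without strand. The same held with TMM and DESeq2 factors and with Mir122 left out. These settings act on the members through the totals, because the member counts without strand were the same to within 1 read. They are rescalings and not separate checks. For Mir132 the log2 difference was 0.45 without strand, 0.46 with TMM factors, 0.45 with DESeq2 factors and 0.63 with Mir122 left out. Direction and call also held under other count minimums and pseudocounts, but these do not alter the test of a gene. A pseudocount enters only the log2 difference, and a count minimum only the set of genes over which p was adjusted. Mir96 has under 100 counts and gave no value at a minimum of 100 counts. Under the exact negative binomial test of edgeR the same log2 differences (0.53 for Mir132, -0.996 for Mir212, -1.11 for Mir182, 0.42 for Mir183 and -1.74 for Mir96) were not called, and 2 genes in all were called against 262, with 25 at an unadjusted p under 0.05. Without strand, levels rose because the total is smaller: Mir183 had a mean of 106.6 CPM against 86.6 CPM and the Mir132-Mir212 cluster 1024 CPM against 834 CPM. The median level difference of neighbouring genes on the log2 scale, 2.09, was 2.40 at 1 CPM, 1.57 at 100 CPM, 1.94 within 1000 bp and 1.75 for genes with no shared run of 18 bases, which was tried only after seeing the data. Pairs called in opposite directions numbered 36 of 75 (48.0%), against 18 of 46 within 1000 bp (39.1%), 22 of 61 without strand (36.1%), 30 of 54 at 100 CPM (55.6%) and 37 of 77 at 1 CPM (48.1%). Of 109 alternatives other than single libraries, 95 kept direction and call, or stayed within 1 SD or 1.5 times. The 95 include the pseudocount and count-minimum settings of the members, in which the call was fixed or nearly so. They also include the ratios and Fisher's tests of member pairs without strand, which reuse nearly the same counts. Mean levels with TMM and DESeq2 factors could move little, because these factors scale the 2 libraries in opposite directions. The SD of 2 libraries is also a wide limit, as for Mir182 (1268 ± 656 CPM). The 95 are therefore not a measure of stability. The 22 single-library values lie within 1 SD by construction and say nothing about stability. No paired analysis was possible because the series holds 1 group. Depth limits Mir96 most, with 35 and 11 counts.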
